A study of Homo sapiens with 6 samples.

Results

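E proteins and ID inhibitors are 2 opposed groups of helix-loop-helix proteins, and their mRNA levels were compared between Kasumi-1 cells incubated with I3 and control cells. The genes were chosen by name, as TCF3, TCF4 and TCF12 for the E proteins and ID1, ID2, ID3 and ID4 for the inhibitors. Of these 7 genes, 5 were analysed here out of 29810 rows of the FPKM table, namely TCF3, TCF12, ID1, ID2 and ID3. TCF4 and ID4 were not analysed here. Kasumi-1, an established line grown from human AML, has the t(8;21) translocation, whose product fuses the DNA-binding part of RUNX1 to RUNX1T1 (ETO). I3 is an inhibitor of histone deacetylases. The mRNA-seq data cover 3 control cultures, which received DMSO alone according to the methods, and 3 cultures that received 0.25 μM I3. The labels and methods give 48 h of incubation, whereas a figure legend of the study gives a longer time for this dose, and the data do not show which is right. All 6 libraries come from this 1 cell line, and the labels do not say whether the cultures of a group were grown separately, so p-values measure the spread between these libraries only.

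E proteins are basic helix-loop-helix transcription factors that bind the E box, a short DNA motif, as dimers with each other or with tissue-specific partners such as TAL1 and LYL1. ID proteins carry the helix-loop-helix part without the basic region that contacts DNA, so that a dimer of an ID protein and an E protein does not bind the E box. In AML with t(8;21), E proteins bind the ETO part of the fusion protein, and TCF3 and TCF12 have been found with LYL1, LMO2 and LDB1 in the complex that the fusion forms on DNA. A level of an mRNA says nothing of the amount or activity of its protein.

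The level of each gene is given as FPKM, the number of fragments per kilobase of exon, scaled to the total of the library. The exon length takes all annotated exons of a gene together, so comparisons of levels between genes depend on the annotation. Multiplied by the exon length of the gene, the FPKM values gave whole reads, and the depth that follows was 17500303 to 18193362 reads in a library. In all 6 libraries the values of the 5 genes were within 0.1 read of a whole number. Of the 6 markers of myeloid progenitor cells with the fusion (KIT, CD34, CD33, MPO, RUNX1T1 and ANPEP), all 6 were above 0.5 FPKM, with a mean of 8197 FPKM for MPO and 204 FPKM for KIT in control cells. The summed level of the markers of other cell types stayed between 0.164 and 0.432 FPKM for B cells (CD22), between 2.20 and 3.20 FPKM for T cells (CD3D, CD2 and CD8A, most of it CD8A) and at 0.0526 FPKM or less for erythroid cells, plasmacytoid dendritic cells and fibroblasts. Of the markers chosen, 1 of 3 was analysed here for B cells and for fibroblasts, and 1 of 2 for plasmacytoid dendritic cells. Erythroid cells had 2 of 3 and T cells 3 of 4. Other genes of the B cell lineage were expressed, with control means of 5.59 FPKM for CD79B, 5.08 for IGLL1, 1.14 for PAX5 and 1.01 for CD79A. The lymphoid gene RAG1 lay below 0.5 FPKM. The libraries also differed in how far levels followed the GC content of the transcripts. The rank correlation of a library's deviations with GC content across genes was negative in control 1 (-0.313), I3 1 (-0.232) and I3 3 (-0.446), and positive in control 2 (0.446), control 3 (0.337) and I3 2 (0.262).

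All 5 genes were expressed in Kasumi-1 cells, at 3 separate levels. TCF3 was the highest, with a mean of 41.1 FPKM over the 6 libraries, and stood above 93.0% of the 12960 tested genes. TCF12 and ID1 followed with 17.6 FPKM each. ID2 and ID3 were lowest, with 3.02 and 2.97 FPKM, above 36.2% and 35.8% of the tested genes. TCF3 lay above TCF12 and ID1 in each library, and these 2 lay above ID2 and ID3 in each library. ID1 lay above TCF12 in control 1, 2 and 3 and in I3 1, and below it in I3 2 and I3 3. Their order thus differed between libraries. The difference between the means of ID2 and ID3 over the 6 libraries was smaller than their counting error. In I3 2 the difference was wider, with 3.19 FPKM for ID2 and 2.50 FPKM for ID3 (125 against 80 reads).

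**Figure D1:**
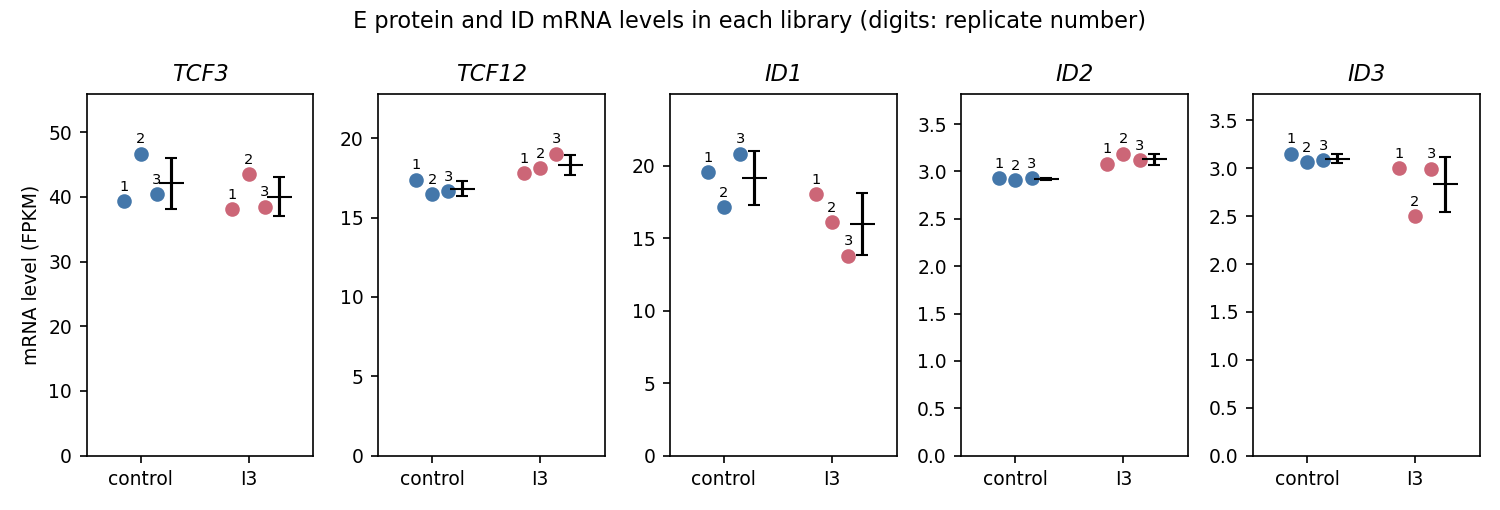
Level in FPKM of the 5 genes in each control (blue) and I3 (red) library, with replicate numbers above the points and the mean ± SD beside them (n = 3). The groups overlap for TCF3 and ID1, the I3 points lie above the control points for TCF12 and ID2, and they lie below for ID3.

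None of the 5 genes passed the thresholds that the study set. For each of the 12960 genes with a mean of 0.5 FPKM or more, limma compared the groups by a two-sided test on log2(FPKM + 0.5). A gene was called if its adjusted p was under 0.05 (Benjamini-Hochberg) and it differed by 0.58 or more on the log2 scale, upwards or downwards. All log2 fold changes are on this scale, where the added 0.5 shrinks the differences of low genes such as ID2 and ID3. All 5 genes passed the minimum and 0 were called. Across all tested genes 0 (0%) were called as well, and the smallest adjusted p was 0.309. With voom on the rebuilt reads the count was 0 as well. The study applied these thresholds with another test (DESeq) and reported both downregulated and upregulated genes. The cause of this difference was not tested. At an unadjusted p under 0.05, limma had 0 of the 5 genes, against 2.08% of all tested genes higher and 2.85% lower. This count of 0 depended on the processing, since of 18 alternatives ID1 had an unadjusted p under 0.05 in 5 and TCF12 in 2. For ID1 the unadjusted p was 0.0489 with a minimum of 1 FPKM, 0.0431 with median-of-ratios scaling, 0.0478 with voom, 0.0259 without control 2 and 0.0182 without I3 1, and the adjusted p from limma was 0.796 or more in these 5. For TCF12 the unadjusted p was 0.0345 without a minimum and 0.0438 without control 1, with an adjusted p from limma of 0.898 and 0.447. The largest log2 fold change among the 5 genes was that of ID1, -0.26, and 10.6% of the tested genes had one at least as large in either direction. The median log2 fold change was -0.07 over the 5 genes and 0.011 over all tested genes. In bulk RNA, fewer cells that express a gene and less mRNA per cell cannot be told apart.

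TCF3 (ENSG00000071564) encodes the E protein E2A, which is needed for B cell development and is bound by the fusion protein. The gene lies on chromosome 19 of GRCh38 from 1609290 to 1652605 on the minus strand. The row sums all its splice variants, which differ in the DNA-binding exon. TCF3 had 39.4, 46.6 and 40.4 FPKM in control 1, 2 and 3 and 38.1, 43.5 and 38.5 FPKM in I3 1, 2 and 3. The groups overlapped, and replicate 2 was the highest library in each of them. The mean was 42.1 ± 3.94 FPKM (SD, n = 3) in the control group against 40.0 ± 2.99 FPKM (SD, n = 3) with I3. The log2 fold change was -0.07 (95% interval -0.27 to 0.13, adjusted p = 0.998 from limma), and the two-sided exact permutation p was 0.5. The transcripts of TCF3 have a GC content of 61.8%, and both libraries numbered 2 were among those in which GC-rich genes were high. After removal of the GC trend of each library the log2 fold change was -0.02. Without control 2 it was 0.0024, so its sign rested on that library.

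The region before the start of TCF3 is shown because TCF3 was the highest of the 5 genes. The sequence is the 250 bases before the RefSeq start (GRCh38.p14, chr19:1652616-1652865, minus strand), with GGGCGG and its reverse complement in capitals:
TCF3: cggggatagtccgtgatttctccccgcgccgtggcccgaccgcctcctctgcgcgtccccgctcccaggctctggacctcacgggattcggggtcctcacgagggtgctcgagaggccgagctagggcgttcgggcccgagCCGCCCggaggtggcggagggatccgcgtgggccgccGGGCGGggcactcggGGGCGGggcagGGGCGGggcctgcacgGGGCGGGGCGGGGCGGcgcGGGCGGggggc

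This window held the GC box GGGCGG 8 times on either strand, counting overlapping matches. No match was found for the E box, searched as CANNTG, for the TATA motif, searched as TATAAA, or for the motif CCAAT. Of 35116 RefSeq promoters searched over the same 250 bases and on both strands, 42.6% held a GC box, 61.8% an E box, 10.7% the TATA motif and 32% the CCAAT motif. A match of letters does not show that a factor binds there.

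TCF12 (ENSG00000140262) encodes the E protein HEB, which forms dimers with TCF3 and is needed for T cell development. The gene lies on chromosome 15 of GRCh38 from 56918623 to 57299281 on the plus strand. TCF12 had 17.4, 16.5 and 16.6 FPKM in control 1, 2 and 3 and 17.8, 18.1 and 19.0 FPKM in I3 1, 2 and 3. All I3 libraries were above all control libraries, although I3 1 was close to control 1. The mean was 16.8 ± 0.484 FPKM (SD, n = 3) without and 18.3 ± 0.629 FPKM (SD, n = 3) with I3, a difference of 8.79% of the control mean. Its log2 fold change was 0.12 (95% interval -0.01 to 0.25, unadjusted p = 0.0712, adjusted p = 0.998 from limma), and the exact permutation p was 0.1, the smallest that 3 against 3 libraries allow. The transcripts of TCF12 have a GC content of 44.9%. The log2 fold change was 0.09 after removal of the GC trend, 0.08 among the 3 libraries with a negative GC correlation and 0.13 among the 3 with a positive one. In the negative set control 1 was the only control library, and in the positive set I3 2 was the only I3 library.

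TCF12 has 5 starts in RefSeq, and a value for the whole gene does not say which of them were used. The first 2 are shown because their upstream regions differ in base composition and motifs, on the plus strand of GRCh38.p14 at chr15:56917840-56918089 and chr15:56918394-56918622. Capitals mark an E box in the first and a GC box (CCGCCC on this strand) in the second, and bases inside an annotated exon of the gene were left out:
TCF12, first start: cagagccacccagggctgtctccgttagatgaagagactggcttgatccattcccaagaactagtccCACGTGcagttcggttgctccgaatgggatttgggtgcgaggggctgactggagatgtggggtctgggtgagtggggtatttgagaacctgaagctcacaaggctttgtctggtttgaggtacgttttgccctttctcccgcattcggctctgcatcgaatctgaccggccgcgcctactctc
TCF12, second start: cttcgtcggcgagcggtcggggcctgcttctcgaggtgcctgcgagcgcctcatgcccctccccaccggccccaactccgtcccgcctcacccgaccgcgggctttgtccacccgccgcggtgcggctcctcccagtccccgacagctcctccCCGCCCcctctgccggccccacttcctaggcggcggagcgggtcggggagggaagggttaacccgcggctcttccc

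The E box of the first start reads CACGTG and begins at position -183 from the start. The 250 bases before the first start have a GC content of 56.0% and those before the second 75.2%, which compares with 79.6% for TCF3.

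ID1 (ENSG00000125968), an early target of BMP signaling in many cells, had the widest spread of the inhibitors. The gene lies on chromosome 20 of GRCh38 from 31605283 to 31606515 on the plus strand. ID1 had 19.6, 17.1 and 20.8 FPKM in control 1, 2 and 3 and 18.02, 16.1 and 13.8 FPKM in I3 1, 2 and 3. The groups overlapped, since I3 1 was above control 2. The mean was 19.2 ± 1.87 FPKM (SD, n = 3) in the control group and 15.96 ± 2.13 FPKM (SD, n = 3) with I3, or 16.7% lower. For ID1 the log2 fold change was -0.26 (95% interval -0.52 to 0.0022, unadjusted p = 0.0515, adjusted p = 0.998 from limma), and the exact permutation p was 0.2. It was -0.23 after removal of the GC trend. Among the 3 libraries with a negative GC correlation (control 1 as the only control) it was -0.30. Among the 3 with a positive one (I3 2 as the only I3 library) it was -0.22. I3 3 was the lowest library, and without it the log2 fold change was -0.16.

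The region before the start of ID1 is shown because ID1 had the largest difference of the 5 genes. The sequence is the plus strand of GRCh38.p14 at chr20:31605039-31605282, which ends where the first annotated exon begins. Capitals mark 2 GC boxes, a CCAAT motif that reads ATTGG on this strand and adjoins the first GC box, and TATAAA, which overlaps its own reverse complement TTTATA:
ID1: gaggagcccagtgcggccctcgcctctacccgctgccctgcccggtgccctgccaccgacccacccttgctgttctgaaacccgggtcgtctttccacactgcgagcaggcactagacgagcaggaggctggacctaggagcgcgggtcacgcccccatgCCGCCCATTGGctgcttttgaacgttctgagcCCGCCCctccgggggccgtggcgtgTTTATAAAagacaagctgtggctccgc

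Among the 5 genes, ID1 alone had TATAAA in the 250 bases before any of its RefSeq starts. No E box was found there. The windows of ID2 and ID3 overlap annotated exons and are not printed. The window of ID2 held an E box (CAGCTG, at position -205 from the start), 2 GC boxes and 3 CCAAT motifs, and that of ID3 held none of the 4 motifs.

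ID2 (ENSG00000115738), which is needed for natural killer and innate lymphoid cells, differed by the smallest log2 value next to TCF3. The gene lies on chromosome 2 of GRCh38 from 8678845 to 8684453 on the plus strand. ID2 had 2.93, 2.90 and 2.93 FPKM in control 1, 2 and 3 and 3.08, 3.19 and 3.12 FPKM in I3 1, 2 and 3. The groups did not overlap, with an exact permutation p of 0.1. The log2 fold change was 0.08 (95% interval -0.09 to 0.25, adjusted p = 0.998 from limma). These values stand for 114, 114 and 113 reads in control cells and for 121, 125 and 125 reads with I3. The antisense gene ID2-AS1 shares 38 exon bases with ID2 and had a mean of 0.0365 FPKM. The sources used here do not state whether the counting used strand, so that reads over these bases could belong to either gene.

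ID3 (ENSG00000117318), which restrains E proteins in lymphocytes, lies on chromosome 1 of GRCh38 from 23557918 to 23559794 on the minus strand. ID3 had 3.15, 3.06 and 3.08 FPKM in control 1, 2 and 3 and 3.00, 2.50 and 3.00 FPKM in I3 1, 2 and 3. All I3 libraries were below all control libraries, with an exact permutation p of 0.1. The log2 fold change was -0.11 (95% interval -0.33 to 0.10, adjusted p = 0.998 from limma). It rested mainly on I3 2, and without that library it was -0.04. The read numbers behind ID3 were 100, 98 and 97 for the control libraries, then 96, 80 and 98 for I3 1, 2 and 3.

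**Figure D2:**
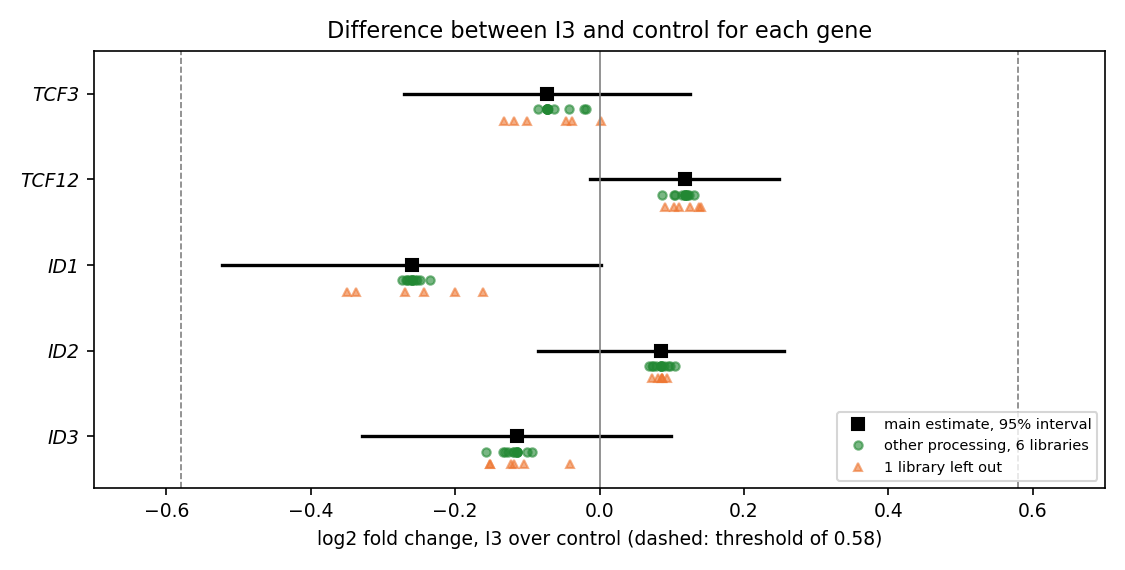
Log2 fold change between I3 and control for each gene, with the 95% interval of limma (black), the values under other processing with all 6 libraries (circles) and with single libraries left out (triangles). All intervals include 0, and no value reaches the threshold of 0.58 (dashed lines).

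Control and I3 libraries were fully apart for 3 of the 5 genes, with TCF12 and ID2 above and ID3 below the control libraries. Among all tested genes 9.7% had groups that were apart, 5.06% with I3 above and 4.64% with I3 below. With 5 genes this count rests on differences of a few reads for ID2 and ID3. The coefficient of variation between control libraries was 0.454% for ID2 and 1.46% for ID3, whereas the counting error of a single library (Poisson) was 9.38% and 10.1%. The control libraries of both genes thus differed by less than their counting error. For TCF3 and ID1 the spread between control libraries, 9.36% and 9.75%, was larger than the counting error of 1.49% and 4.90%.

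**Figure D3:**
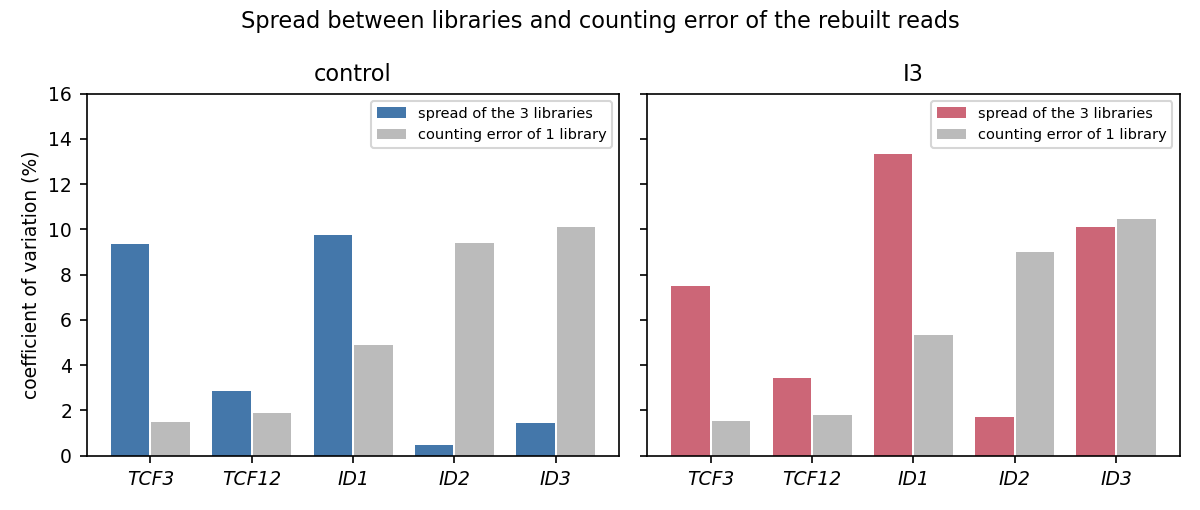
Coefficient of variation of FPKM between the 3 libraries of a group (coloured bars) beside the Poisson counting error of the rebuilt reads of 1 library (grey bars), in percent. For ID2 and ID3 the spread is below the counting error in both groups, and for TCF3, TCF12 and ID1 it is above.

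The ratio of reads between I3 and control cells was therefore computed with its counting error. With the difference in depth taken into account, it was 1.07 for ID2 (371 against 341 reads, exact 95% interval 0.922 to 1.24) and 0.914 for ID3 (274 against 295 reads, 0.773 to 1.08). Both intervals include 1, so these differences were not detectable at this depth. The ratio was 1.09 for TCF12 (9307 against 8418 reads, 1.06 to 1.12), 0.832 for ID1 (1058 against 1251 reads, 0.766 to 0.904) and 0.949 for TCF3 (13083 against 13570 reads, 0.926 to 0.972). These 3 intervals leave out 1, but they cover counting error only and not the spread between libraries, which was larger than the counting error for these genes.

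The balance of inhibitors and E proteins was described by summed levels, without a test. The sum of TCF3 and TCF12 was 56.7, 63.1 and 57.0 FPKM in control 1, 2 and 3 and 55.9, 61.6 and 57.5 FPKM in I3 1, 2 and 3. The sum of ID1, ID2 and ID3 was 25.6, 23.1 and 26.8 FPKM in control 1, 2 and 3 and 24.1, 21.8 and 19.9 FPKM in I3 1, 2 and 3. The groups overlapped in both sums. ID1 made up 69.3% to 77.6% of the ID sum in a library, so this sum mostly follows ID1.

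The ID sum was 42.9 ± 5.56% (SD, n = 3) of the E protein sum in the control group and 37.7 ± 4.72% (SD, n = 3) with I3. The values in control 1, 2 and 3 were 45.2%, 36.6% and 47.0%, and those in I3 1, 2 and 3 were 43.1%, 35.4% and 34.6%. The groups overlapped, as I3 1 was above control 2. Within the E proteins, TCF12 had 44.2%, 35.3% and 41.2% of the level of TCF3 in control 1, 2 and 3 and 46.7%, 41.7% and 49.4% in I3 1, 2 and 3. TCF3 was therefore the more abundant of both E protein mRNAs in each library. ID2 had 92.9%, 94.8% and 94.9% of the level of ID3 in control 1, 2 and 3 and 103%, 127% and 104% in I3 1, 2 and 3. The last ratio turned from below to above 100% between the groups, on genes of 80 to 125 reads each.

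**Figure D4:**
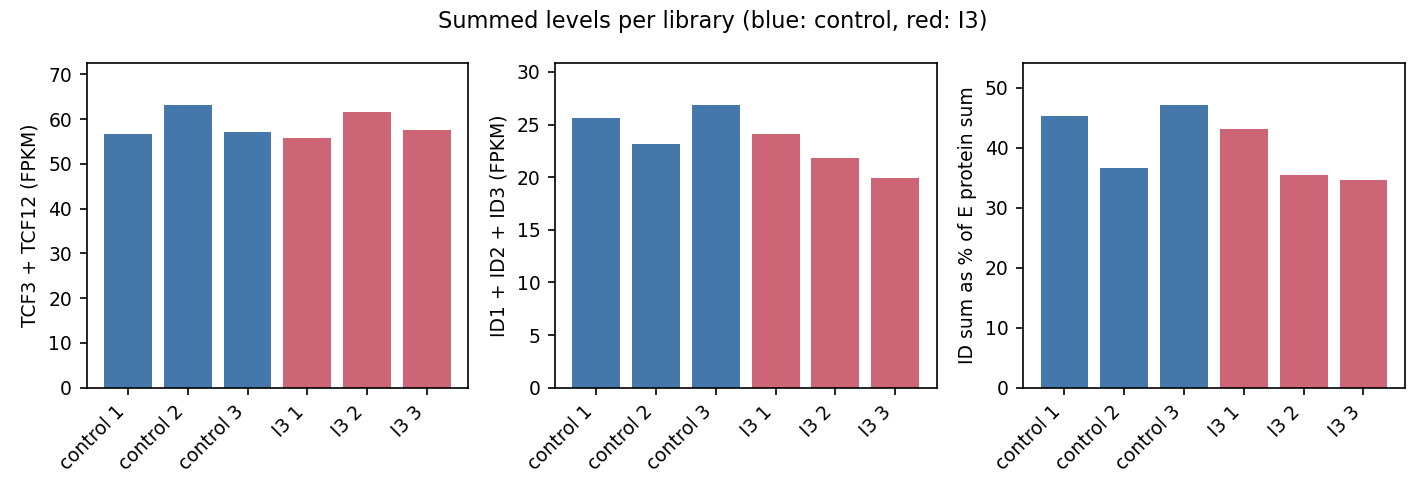
Summed FPKM of TCF3 and TCF12 (left), summed FPKM of ID1, ID2 and ID3 (middle) and the second as a percentage of the first (right), in each control (blue) and I3 (red) library. The groups overlap in all panels.

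The genes around the E proteins were read from 8 lists of 102 genes in all, which hold partners, complex members, regulators and targets. Of these, 85 were analysed here and 55 reached the minimum and were tested, and limma called 0 at the adjusted p. At an unadjusted p under 0.05, 0 of the 55 were higher and 5 (9.09%) were lower, namely LYL1, LMO2, SSBP4, CBFA2T3 and CD79B, against 2.08% and 2.85% of all tested genes. The median log2 fold change was -0.03 over the 55 genes and 0.011 over all tested genes. In 7 of the 55 (12.7%) the groups were apart, 4 with I3 below (LYL1, LMO2, SSBP4 and CBFA2T3) and 3 with I3 above (CBFA2T2, SKP2 and ACVR2B), against 9.7% of all tested genes. The count of 5 became 2 without control 2 and 3 without I3 1, and 4 after removal of the GC trend. Since the lists were chosen with earlier results of these data known, no excess over all tested genes can be read from these shares.

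Of the basic helix-loop-helix partners of E proteins, 3 of 22 were tested, with a median log2 fold change of -0.03 and a range of -0.27 to -0.02. LYL1, which binds DNA with E proteins in blood progenitors and is found in the fusion complex, had 105, 113 and 110 FPKM in control 1, 2 and 3 and 102, 95.5 and 76.0 FPKM in I3 1, 2 and 3. The I3 libraries lay below the control libraries. LYL1 had a log2 fold change of -0.27 (unadjusted p = 0.0356, adjusted p = 0.998 from limma). It was -0.15 after removal of the GC trend (unadjusted p = 0.0872), at a GC content of 69.2%. TAL1, its close relative, had a mean of 4.53 FPKM in the control group and 4.47 FPKM with I3. LYL1 had the highest level of the 3 in each library, and SCX, the other gene above the minimum, had a mean of 0.542 FPKM with I3.

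Of the LMO, LDB, SSBP and GATA genes, whose products bridge E protein dimers to each other and to other factors, 7 of 11 were tested, with a median of -0.10 and a range of -0.47 to 0.10. LMO2, the adaptor that joins TAL1 or LYL1 to LDB1, had 44.4, 43.3 and 45.8 FPKM in control 1, 2 and 3 and 39.7, 37.0 and 33.5 FPKM in I3 1, 2 and 3. The groups did not overlap. Its log2 fold change was -0.28 (unadjusted p = 0.00544, adjusted p = 0.768 from limma), and -0.26 after removal of the GC trend.

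SSBP4, which belongs to a family that binds and stabilizes LDB1, had 31.7, 40.4 and 38.5 FPKM in control 1, 2 and 3 and 29.04, 27.9 and 22.6 FPKM in I3 1, 2 and 3. Its groups did not overlap either. The log2 fold change was -0.47 (unadjusted p = 0.0059, adjusted p = 0.768 from limma), and -0.36 after removal of the GC trend, at a GC content of 67.5%. Of 18 alternatives, the unadjusted p was under 0.05 in 18 for LMO2 and SSBP4, in 14 for CD79B, in 13 for CBFA2T3 and in 10 for LYL1. The lowest adjusted p among them was 0.420, 0.350, 0.399, 0.425 and 0.458 in that order. LDB1 itself had a log2 fold change of -0.12 and GATA2 one of -0.03, both with overlapping groups.

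Of the genes of the fusion and of the ETO family, 5 of 5 were tested, with a median of 0.08 and a range of -0.24 to 0.14. CBFA2T3, an ETO family corepressor that binds E proteins, had 4.05, 4.68 and 4.48 FPKM in control 1, 2 and 3 and 3.48, 3.58 and 3.89 FPKM in I3 1, 2 and 3. The groups did not overlap, and the log2 fold change was -0.24 (unadjusted p = 0.0231, adjusted p = 0.942 from limma). After removal of the GC trend it was -0.17 (unadjusted p = 0.0918). CBFA2T2, its paralog, lay above the control libraries with a log2 fold change of 0.14 (unadjusted p = 0.0710). RUNX1T1, whose reads in these cells include those of the fusion transcript, had a mean of 15.1 FPKM in the control group and 16.1 FPKM with I3, and RUNX1 had 32.4 and 34.2 FPKM, all with overlapping groups.

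The remaining lists had 1 gene at an unadjusted p under 0.05 in either direction. It was CD79B, a part of the B cell receptor and an E protein target in B cells, with 4.87, 5.81 and 6.10 FPKM in control 1, 2 and 3 and 3.94, 4.19 and 4.89 FPKM in I3 1, 2 and 3. Control 1 and I3 3 overlapped by a small margin, and the log2 fold change was -0.33 (unadjusted p = 0.0185, adjusted p = 0.868 from limma). It was -0.29 after removal of the GC trend. CD79A, whose product pairs with that of CD79B, had 0.979, 0.897 and 1.14 FPKM in control 1, 2 and 3 and 1.90, 1.57 and 0.951 FPKM in I3 1, 2 and 3. Its groups overlapped, at a log2 fold change of 0.36 (unadjusted p = 0.112, adjusted p = 0.998 from limma) and 24 to 51 reads in a library. Of the E protein targets 11 of 22 were tested (median log2 fold change -0.05, range -0.33 to 0.36), among them the cell cycle inhibitor CDKN1B at 47.9 FPKM in control cells and the repressor GFI1 at 128 FPKM, with log2 fold changes of 0.11 and -0.04. IGLL1 and PAX5, genes of the B cell lineage, had 5.08 and 1.14 FPKM in control cells and log2 fold changes of -0.18 and 0.22.

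Of the BMP and SMAD genes, which control ID transcription in many cells, 14 of 22 were tested and their log2 fold changes ranged from -0.36 (BMP4) to 0.15 (ACVR2B), with a median of -0.05. The BMP-regulated SMAD genes SMAD1 and SMAD5 had log2 fold changes of -0.09 and 0.07. All 6 genes of the list drawn up for ID protein stability were tested (median -0.02, range -0.12 to 0.11), and the deubiquitinase gene USP1 had a log2 fold change of 0.11. The 4 acetyltransferase genes EP300, CREBBP, KAT2A and KAT2B, whose products are coactivators of E proteins, ranged from 0.02 to 0.07 with a median of 0.03. Of the targets of TCF4 in plasmacytoid dendritic cells, 5 of 10 were tested, with a median of 0.0075 and a range of -0.24 to 0.06.

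**Figure D5:**
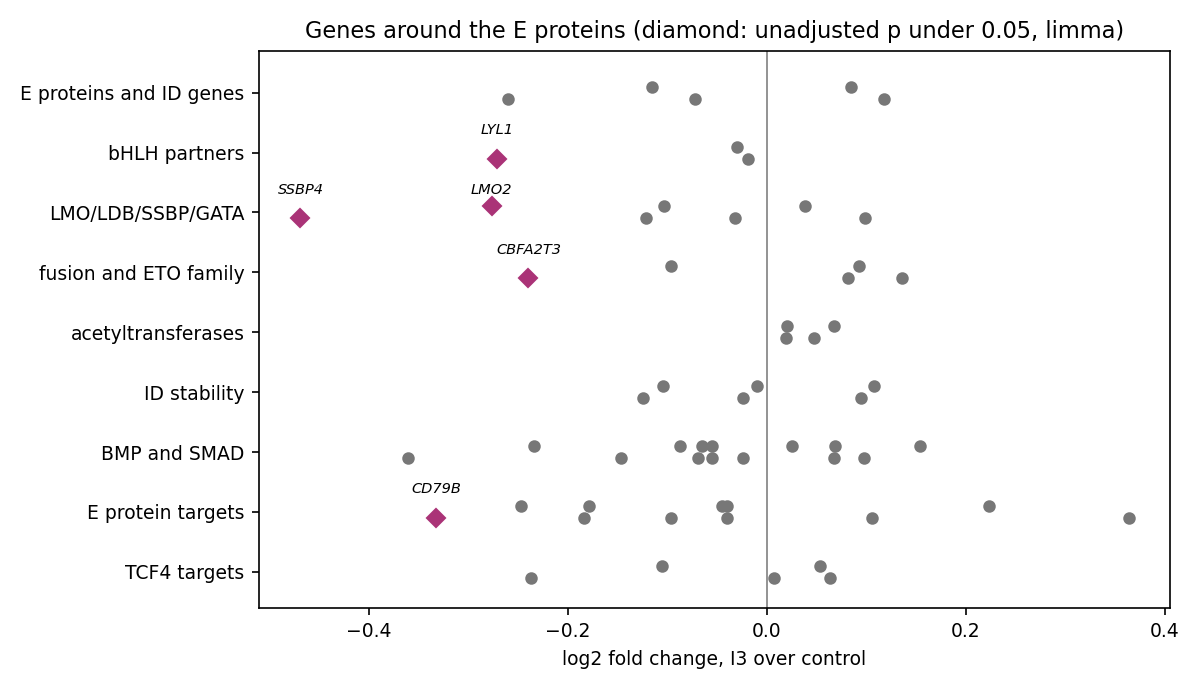
Log2 fold change between I3 and control for the 5 E protein and ID genes (top row) and for the tested genes of the 8 lists, 1 point for each gene. Diamonds mark the 5 genes with an unadjusted p under 0.05 in limma, all of which lie below 0, and none of the points passed the adjusted p.

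The genes whose pattern over the 6 libraries was most like that of TCF3, TCF12 and ID1 were sought among 6279 protein-coding genes with a mean of at least 5 FPKM. JUP (Pearson r = 0.994) and OTUB1 (r = 0.990) were nearest to TCF3. PPAT (r = 0.996) and GAPVD1 (r = 0.994) were nearest to TCF12, and NUCB1 (r = 0.982) and CSRP1 (r = 0.978) to ID1. The 6 points of each correlation share their library effects. These genes were picked for the highest of 6279 correlations over 6 points each. A high r picked in this way does not show a relation, and none was tested. Across the same libraries, the level of TCF3 followed the library's correlation with GC content with a Pearson r of 0.831 and that of TCF12 with -0.717, and the part of GC content in these patterns was not tested.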

How the data were processed

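mRNA-seq libraries of 3 control and 3 I3 cultures of Kasumi-1 cells were analysed, with groups and replicate numbers taken from the sample labels. The name of the deposited table gives the compound as I13, the labels and methods as I3. From poly(A) RNA the authors made strand-specific libraries, and they deposited FPKM values, 1 column for each library. Their processing notes name Trimmomatic, HISAT2, Cufflinks and HTSeq and the build hg38. For tool versions and the gene annotation, the sources used here give nothing. FPKM is normalized to gene length and library total, so no model of counts was used as the main test. Of the 29810 rows, 29703 were found in GENCODE release 29 (GRCh38), which gave exon lengths and coordinates, and 29507 had a symbol. Reads were rebuilt from FPKM and exon length, and 95.7% of the 26519 genes above 0 were whole in all libraries (tolerance 0.1 read). Depth was 17500303 to 18193362 reads per library. All 6 value columns were used.

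Differential expression was tested with limma 3.58.1 in R 4.3.3 (lmFit, eBayes with trend) on log2(FPKM + 0.5) for genes with a mean FPKM of 0.5 or more, without covariates, with Benjamini-Hochberg adjustment. The procedure was tested on simulated data. Exact permutation tests used scipy 1.17.1, tables pandas 2.3.3 in Python 3.11.15 and plots matplotlib 3.10.9. Read ratios have exact binomial intervals, which hold counting error alone. Named were the 7 genes, list genes where a result turned on them, and for each gene of at least 5 FPKM the 2 genes of highest Pearson r. The genes and lists were chosen with earlier results of these data known. Promoter sequences are those of RefSeq (GRCh38.p14). The alternatives were other pseudocounts, minimums and scalings, no trend, a replicate block, each library left out, removal of the GC trend (lowess, span 0.3), voom on rebuilt reads of 13605 genes (mean of 10 reads or more), and no fold threshold. The library cluster by sign of the GC correlation, as a term and as separate comparisons, was added after the data had been seen.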

Additional observations from a re-analysis of the deposited data

How the results depend on the processing

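Of 90 values of the 5 genes under 18 alternatives, 89 kept their direction and none was called. The exception was TCF3 without control 2, at a log2 fold change of 0.0024. With single libraries left out, TCF3 ranged from -0.13 to 0.0024, TCF12 from 0.09 to 0.14, ID1 from -0.35 to -0.16, ID2 from 0.07 to 0.09 and ID3 from -0.15 to -0.04. The lowest adjusted p of any of the 5 genes was 0.447 (TCF12 without control 1). Within the libraries of positive GC correlation, where I3 2 was the only I3 library, TCF3 was at 0.0016.

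In each alternative with all 6 libraries limma called 0 genes over the table. Leaving out 1 library gave 0 to 1 calls for higher genes (1 without control 1) and 0 to 2 for lower genes (2 without I3 1, 1 without I3 2). The 269 genes that were higher at the unadjusted p became 545 without a minimum and 419 after rescaling to TPM, where more genes were tested, and 195 to 941 when each library was left out, with 941 without control 1. The 370 genes lower became 242 to 476, with 242 without control 2 and 245 without I3 3, and the cause was not tested. The 1257 genes whose groups did not overlap became 2008 without a minimum.

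With the replicate number as a block, 363 genes were higher and 493 lower at the unadjusted p and 0 at the adjusted p, and the genes of the 8 lists at the unadjusted p went from 5 to 8. The block changed no call of the 5 genes. Libraries with the same number did not deviate together throughout (correlations of 0.0634, 0.151 and -0.0239 for numbers 1, 2 and 3), so the numbers were not taken as pairs. Genes of 80 to 125 reads, such as ID2 and ID3, are limited by depth.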

Other observations

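Over the 6 libraries, TCF12 and ID2 varied in the same direction (Pearson r = 0.841, Spearman rho = 0.886), as did ID1 and ID3 (Pearson r = 0.404, Spearman rho = 0.829). ID2 and ID3 varied in opposite directions (Pearson r = -0.786, Spearman rho = -0.829), and TCF3 and ID1 showed little relation (Pearson r = -0.033, Spearman rho = -0.029). These are 4 of 10 pairs, described without a test. Among the pairs not listed above, opposite directions were also seen for TCF12 and ID1 (Pearson r = -0.762, Spearman rho = -0.657). The same held for ID1 and ID2 (-0.674 and -0.543), for TCF12 and ID3 (-0.402 and -0.714) and for TCF3 and TCF12 (-0.531 and -0.543). For TCF3 the values were -0.230 and -0.314 with ID2, and -0.307 and 0.029 with ID3. Each correlation runs over both groups and so includes any difference between them. The groups were apart for TCF12, ID2 and ID3, and the largest log2 fold change was that of ID1 (-0.26). The points are the same 6 libraries of both groups, and ID2 and ID3 rest on 80 to 125 reads in each.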
